A study of Homo sapiens with 7 samples.

Results

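MYCN binding was examined at the loci of 7 genes of the hypoxia pathway in Kelly cells: EPAS1, HIF1A, ARNT, VEGFA, EGLN1, EGLN3 and BNIP3. The members were the MYCN ChIP-seq summits, the positions of locally highest signal, whose hg19 position fell in a window of each gene extended by about 10 kb on both sides. There were 56 such summits among the 64657 of the list, in 34 intervals (a peak interval can hold several summits). EPAS1 was included because it holds 1 of the 10 summits with the highest fold enrichment, so its fold enrichment is described here and not tested. The 10th of these summits had a fold enrichment of 40.5 and the next one outside had 39.7. At the window borders, the nearest EPAS1 summit inside lay 9.79 kb from the upstream border with a fold enrichment of 3.10, and the nearest outside lay 1.75 kb beyond it with 4.18.

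Kelly is an established human neuroblastoma line, a model from 1 tumour, with amplified MYCN and an activating ALK mutation. Sensitive cells were given DMSO, and cells resistant to the ALK inhibitor TAE684 were given the inhibitor at 1 µM, in both cases for 48 h before crosslinking. The labels hold 2 ChIP samples and 1 input sample of sensitive cells and 2 of each kind of resistant cells, where input is sheared chromatin without antibody. Both ChIP samples of a state share 1 peak list, so the values have no replicate error and no p-value was computed. Since the resistant list equals the sensitive list in all 64657 rows, and its peaks are named for the sensitive list, every value below is of the sensitive cells and the effect of resistance was not analysed here. A peak list holds no expression, so markers of the cell type were not checked. The highest local input background of the list, 126 input fragments, lay at 16.67 Mb of chromosome 2, near the textbook position of MYCN and 29.8 Mb from the EPAS1 window.

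Hypoxia-inducible factors are pairs of an oxygen-regulated alpha subunit, encoded by HIF1A or EPAS1 (HIF-2 alpha), and the constant beta subunit ARNT. With oxygen present, prolyl hydroxylases of the EGLN family mark the alpha subunits for degradation through the VHL ubiquitin ligase. When oxygen is low the pair binds a short core motif, ACGTG or the same letters with G in first place, at targets such as VEGFA, a growth factor for blood vessels, and BNIP3, a mitochondrial protein of mitophagy. EPAS1 is known for its expression in the sympathoadrenal lineage from which neuroblastoma arises. MYCN is itself a basic helix-loop-helix protein, as are HIF1A, EPAS1 and ARNT, and with its partner MAX it prefers the E-box CACGTG, which contains ACGTG.

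Promoter sequences are shown for the locus with the strongest site and for the genes whose promoter held CACGTG or ACGTG. RefSeq (GRCh38.p14) gave 7 promoters for 6 of the 7 genes, 2 of them for HIF1A, each from 250 bases before to 50 bases after a gene start. CACGTG was present in 1 of the 7, that of BNIP3, and in 7.26% of all 35116 promoters of this length in the table. ACGTG, on either strand and counting those inside CACGTG, was present in 2 of the 7, BNIP3 and EGLN1, and in 21.4% of all. The BNIP3 motif began 134 bases and the EGLN1 motif 13 bases before the gene start. The core with G in first place, GCGTG, was not counted in any promoter. The 250 bases upstream of the gene start are printed 5′ to 3′ on the strand of the gene, with CACGTG or ACGTG in capitals. They are GRCh38.p14 chr2:46297157-46297406 on the plus strand for EPAS1, chr1:231422288-231422537 on the minus strand for EGLN1 and chr10:131981924-131982173 on the minus strand for BNIP3.
EPAS1: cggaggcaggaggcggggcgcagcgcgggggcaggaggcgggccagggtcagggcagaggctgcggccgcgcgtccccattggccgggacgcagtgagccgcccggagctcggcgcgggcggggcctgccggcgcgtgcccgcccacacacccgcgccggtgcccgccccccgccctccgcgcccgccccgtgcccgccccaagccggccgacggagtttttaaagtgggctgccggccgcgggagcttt
EGLN1: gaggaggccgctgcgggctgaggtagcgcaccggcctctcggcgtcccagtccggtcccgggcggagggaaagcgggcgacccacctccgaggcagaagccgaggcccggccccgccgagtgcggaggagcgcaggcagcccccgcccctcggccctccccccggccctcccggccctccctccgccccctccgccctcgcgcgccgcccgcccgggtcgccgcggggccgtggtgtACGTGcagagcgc
BNIP3: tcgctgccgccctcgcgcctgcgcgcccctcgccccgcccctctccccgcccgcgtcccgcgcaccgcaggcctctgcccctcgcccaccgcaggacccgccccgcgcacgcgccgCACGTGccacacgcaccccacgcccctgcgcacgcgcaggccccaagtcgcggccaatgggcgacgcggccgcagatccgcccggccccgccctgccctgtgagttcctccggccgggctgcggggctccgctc
The EPAS1 stretch held neither CACGTG nor ACGTG, but it does hold the uncounted form GCGTG, as does the BNIP3 stretch on its other strand. It was 80.8% G or C, beside 81.2% for EGLN1 and 81.6% for BNIP3. The median over all promoters was 58% for the same 250 bases. These sequences are of another build than the peaks, so whether a summit lies on a motif was not computed, and the bases under the peaks were not read.

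All 7 loci held MYCN summits, and EPAS1, whose window was the longest, held the most. Per Mb of window, VEGFA held 243 summits and EPAS1 236. There were 26 summits in the EPAS1 window, 9 at VEGFA, 5 each at HIF1A, EGLN1 and EGLN3, and 3 each at ARNT and BNIP3. The windows together spanned 473 kb and had 118 summits per Mb, against 21.2 per Mb over the chromosomes up to their last peak. These windows lie on genes by choice and the whole-list density does not. When every chromosome was divided into tiles of 110 kb, the length of the EPAS1 window, 0.133% of the tiles held at least 26 summits. For VEGFA, 0.723% of tiles of 37 kb held at least 9. For the other loci the share was 6.11% for EGLN3, 10.4% for BNIP3, 10.9% for HIF1A, 12.7% for EGLN1 and 25.9% for ARNT. Counts like those of EPAS1 and VEGFA were thus rare among tiles of their length, and a count like that of ARNT was common. Unlike the windows, the tiles were not placed on genes, and their median count was 1 at 110 kb and 0 at 37 kb. The counts are of summits, and the 9 of VEGFA lay in 4 intervals. Tiles were not compared by intervals.

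The summits of EPAS1 lay mostly inside the gene, and those of the other 6 loci mostly at its start. No hg19 annotation was used, so positions are given from the 5′ edge that each window implies, 10 kb inside its border, with negative distances upstream. The gene lengths in the RefSeq table were shorter than the implied ones by 0.254 kb (HIF1A) to 1.15 kb (EGLN3), and by 3.47 kb for EGLN1, which bounds the error of that edge where gene models of both builds match. Within 5 kb of it, a distance chosen after the values were seen, lay 27 of the 30 summits of the other 6 loci and 6 of the 26 of EPAS1. In 6 of the 7 loci the summit of highest fold enrichment was among these, the exception being EPAS1. Exons and introns were not assigned.

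**Figure D1:**
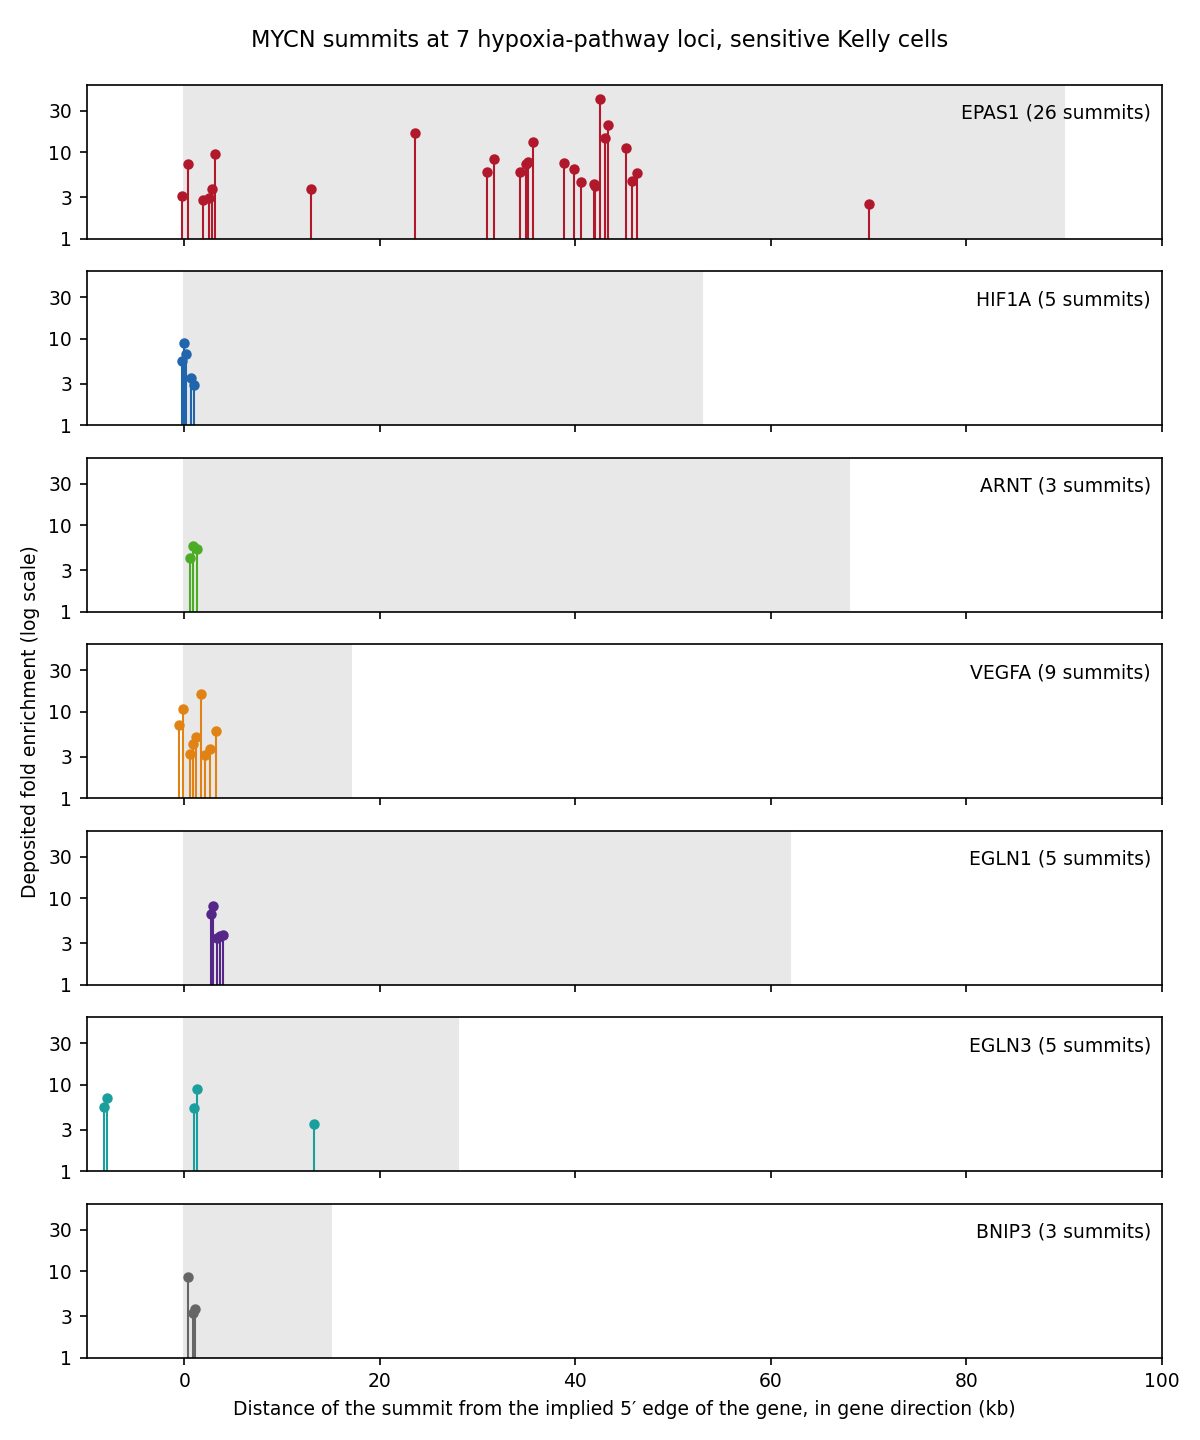
Each point is a MYCN summit, by its distance from the implied 5′ edge of the gene (kb, horizontal) and its deposited fold enrichment (log scale, vertical), with the implied gene body in grey. The summits of 5 loci all lie within 5 kb of the edge, EGLN3 has 3 outside, and EPAS1 has 20 outside, of which 18 lie between 23.6 and 46.3 kb.

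The strongest EPAS1 site lay 42.5 kb inside the gene, in the interval chr2:46566381-46566740 (hg19) with its summit at 46566540. Its fold enrichment was 41.5, with a 95% interval of 35.9 to 47.6 from the exact Poisson error of its ChIP fragments, and its −log10 q was 167.3. It rested on 198 ChIP fragments over a local background of 2.09 input fragments. This was the 8th highest fold enrichment of the list. The deposited value includes a pseudocount of 1, and over so low a background it would be 60.9 without one and 18.6 with a pseudocount of 5. The interval covers counting error of the ChIP sample only, leaving out that of the background and the choice of a summit as a local maximum, and the same holds for the intervals that follow.

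The next interval, chr2:46566834-46567651, began 93 bp further on and held a pair of summits. Its summit at 46567302 had a fold enrichment of 20.6 (18.0 to 23.4) and the most ChIP fragments of the locus, 223, over a background of 6 input fragments. Its summit at 46567000 had 14.5 (11.8 to 17.8) with 91 fragments over 3.08. The 3 summits of this core span less than 1 kb. By ChIP fragments alone the order of the first pair was the reverse, although the intervals of 198 (171 to 228) and 223 (195 to 254) overlap.

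Around this core, 18 EPAS1 summits in 15 intervals were spread from 23.6 to 46.3 kb, and 17 of them in the last 15.3 kb of that stretch. Their fold enrichment had a median of 7.40, a lowest value of 4.10 and the highest of 41.5, and 6 of the 18 reached 10. In the whole list 12.0% of the summits reached 10, and since EPAS1 was chosen on fold enrichment nothing is read from that contrast. Besides the 3 of the core, the summits above 10 were at 23.6 kb with 16.5 (13.0 to 20.8), at 35.6 kb with 13.0 (10.3 to 16.1) and at 45.2 kb with 11.0 (8.23 to 14.4). The first of these, chr2:46547432-46547724, stood alone, with 10343 bp free of peaks before it and 7180 bp after it. The summits at 34.4, 35.0, 35.2 and 35.6 kb formed a second group, with fold enrichments of 5.86, 7.35, 7.79 and 13.0. In that group the weakest fold enrichment belonged to the summit with most ChIP fragments, 108, where the background was 11 input fragments.

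The remaining summits of this stretch were weak to moderate. At 31.0 and 31.6 kb the fold enrichment was 5.84 and 8.30. From 38.8 to 42.0 kb, 5 summits had values of 7.44, 6.41, 4.53, 4.30 and 4.10. After the core, the summits at 45.8 and 46.3 kb had 4.67 and 5.70. These 9 summits had 21 to 49 ChIP fragments, fewer than the list's median of 63.

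At the EPAS1 start itself the background was typically higher, and the fold enrichment typically lower, than in this inner stretch. That stretch was bounded around the listed summits, and EPAS1 was chosen on the fold enrichment of its strongest summit. The contrast is therefore a description only. All 20 EPAS1 summits more than 5 kb from the edge had a median fold enrichment of 6.88. The summit at 0.4 kb, in chr2:46524098-46524580, had 7.30 (6.12 to 8.65), from 131 ChIP fragments over 10.6 input fragments. The summit at 3.09 kb, the last of 3 in chr2:46526500-46527229, had 9.58 (7.66 to 11.8) with 82 fragments over 4.59. The summit nearest to the implied edge, at -0.208 kb, had 3.10, and those at 1.90, 2.55 and 2.79 kb had 2.82, 2.95 and 3.75. The RefSeq gene was 0.709 kb shorter than implied. Whether the summit at -0.208 or at 0.4 kb is nearer to the gene start is thus not settled. None of the 6 summits at the start reached 10, and their median was 3.42. Only 2 other EPAS1 summits were listed, at 13.0 kb with 3.78 and at 70.0 kb with 2.53. The first was 9617 bp from the peaks at the start, and 23599 bp without a peak separated the second from the cluster before it.

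The input differed between these parts of EPAS1, and fold enrichment is measured against it. At the 6 summits of the start the median background was 8.0 input fragments, and 2.90 at the 18 inner ones, where the genome-wide mean was 1.61. The median of ChIP fragments was 55.5 at the start and 45.5 inside. So, as a description only, the typical inner summit had fewer ChIP fragments than the typical summit of the start and a higher fold enrichment. The summits at 42.5 and 43.3 kb differed from this, with more ChIP fragments than any summit of the start. The part of the background in the fold enrichment of the weaker inner summits was not tested.

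**Figure D2:**
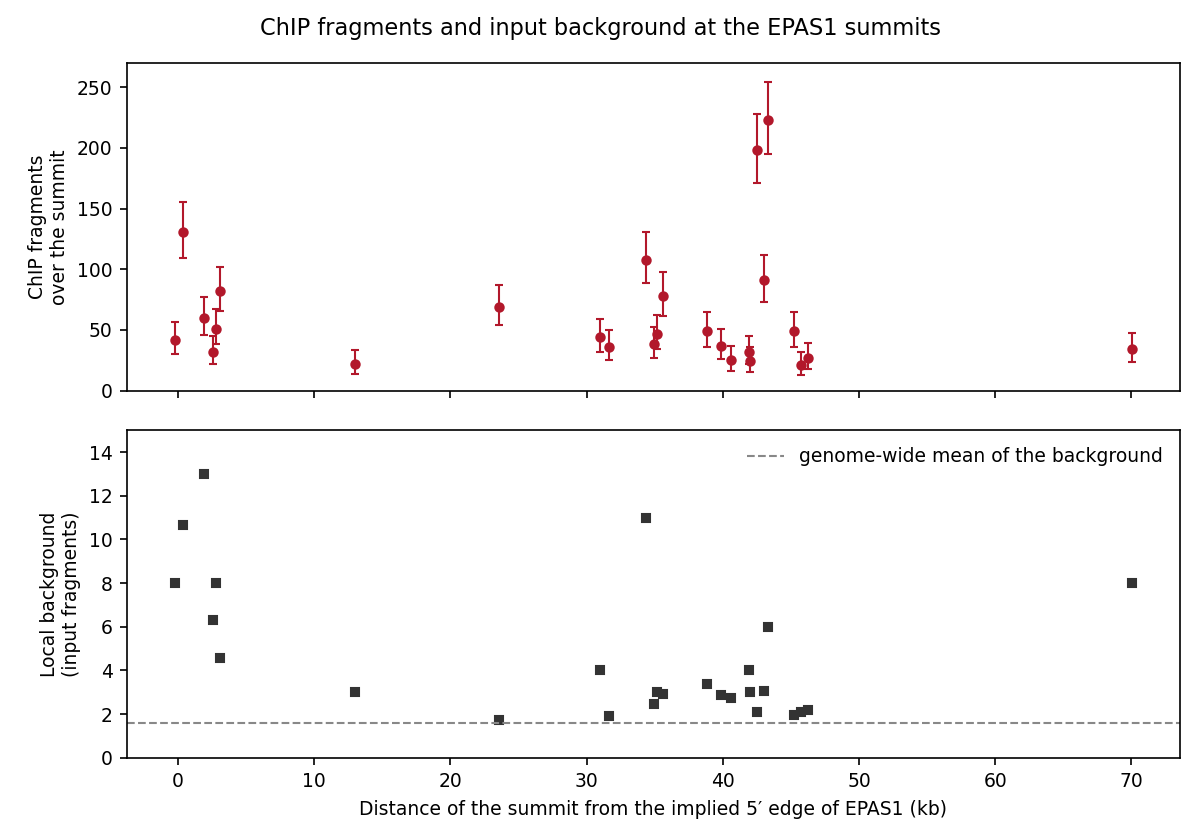
ChIP fragments over each EPAS1 summit (upper panel, bars are exact 95% Poisson intervals) and local background in input fragments (lower panel) by distance from the implied 5′ edge in kb. The summits at 42.5 and 43.3 kb hold 198 and 223 ChIP fragments, and the background is highest, at 13, near the start.

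HIF1A, the other oxygen-regulated alpha subunit, carried a single interval at its start. It spanned 1583 bp, chr14:62161578-62163160, and held 5 summits. The highest, at 62161970 and so -0.031 kb from the edge, had a fold enrichment of 8.96 (7.66 to 10.4) from 166 ChIP fragments over 11 input fragments. Its neighbours at -0.291 and 0.164 kb had 5.59 and 6.72, and those at 0.718 and 1.01 kb had 3.53 and 2.91. MYCN signal thus fell off into the gene, and no summit was listed in the further 62 kb of the window. The noncoding RNA genes HIF1A-AS1, HIF1A-AS2 and HIF1A-AS3 overlap HIF1A in the RefSeq table, and which of them this interval lies on was not computed.

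ARNT, the shared beta subunit, had the weakest sites of the 7 loci by highest fold enrichment. The interval chr1:150848990-150849636 held summits at 0.833 kb with 5.72 (4.85 to 6.70) and at 0.532 kb with 4.17 (3.50 to 4.93). A separate interval of 218 bp had its summit at 1.26 kb with 5.28 (4.26 to 6.48). Fragments were not few here: the first 2 had 150 and 135 ChIP fragments over 16 and 20 input fragments. The background of 20 was the highest at any of the 56 summits, and 12.4 times the genome-wide mean.

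The 2 prolyl hydroxylase genes also carried their strongest MYCN sites near the 5′ end. At EGLN1, which encodes PHD2, the main oxygen sensor among the hydroxylases, all 5 summits were in chr1:231556814-231558570, 1757 bp wide. The summit at 231558063 had a fold enrichment of 8.19 (7.0 to 9.53) from 165 ChIP fragments over 12.0 input fragments. The summit at 231558327, the nearest to the edge at 2.67 kb, had more fragments, 195, and a lower fold enrichment of 6.64 (5.74 to 7.63) over a background of 18. The summit with more ChIP fragments thus had the lower fold enrichment, and the difference was not tested. Further in, at 3.36 to 3.94 kb, 3 summits had 3.51, 3.62 and 3.76. The distances from the edge, 2.67 to 3.94 kb, were of the size of the 3.47 kb by which the RefSeq gene is shorter than the window implies. Which summit is nearest to the gene start is thus not settled. The noncoding RNA gene LOC107985360 overlaps EGLN1 in the RefSeq table, and whether the interval lies on that gene was not computed.

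EGLN3, which encodes PHD3, was the only one of the 6 loci beside EPAS1 with summits more than 5 kb from the edge. Its start held 2 summits in chr14:34419619-34420427, at 1.25 kb with 8.83 (7.21 to 10.7) and, nearest to the edge, at 0.99 kb with 5.31 (4.19 to 6.65). Upstream, a pair of narrow intervals of 157 and 156 bp had summits at -7.95 kb with 6.94 (4.92 to 9.53) and at -8.22 kb with 5.46 (3.97 to 7.33). Both had few ChIP fragments, 35 and 41, over low backgrounds of 2.38 and 4 input fragments. Inside the gene, at 13.3 kb, a summit had 3.53 with 37 fragments. Their fold enrichments were below that of the start's strongest summit, and the differences were not tested.

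VEGFA had the most MYCN summits of the 6 loci other than EPAS1, 9 in 4 intervals from -0.592 to 3.22 kb. The strongest lay at 43739733, 1.73 kb inside, in chr6:43738499-43740200, an interval of 1702 bp. It had a fold enrichment of 16.0 (14.0 to 18.2) from 223 ChIP fragments over 8 input fragments. The other summit above 10 was the nearest to the edge, at -0.15 kb in chr6:43737286-43738078, with 10.8 (9.24 to 12.6) and 164 fragments over 8.82. These were the only summits of at least 10 among the 30 of the loci other than EPAS1, which is 6.67% where the whole list had 12.0%. The other 7 VEGFA summits had 3.19 to 6.97.

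BNIP3, whose promoter sequence held the CACGTG E-box, had 3 summits in chr10:133794832-133795952. The nearest to the edge, at 0.411 kb, was the strongest with 8.63 (7.24 to 10.2) from 133 ChIP fragments over 9 input fragments. Those at 0.878 and 1.09 kb had 3.25 and 3.62 with 39 and 42 fragments. The gene PPP2R2D overlaps BNIP3 in the RefSeq table. The highest fold enrichment of the 6 loci other than EPAS1 was thus 16.0 at VEGFA, 8.96 at HIF1A, 8.83 at EGLN3, 8.63 at BNIP3, 8.19 at EGLN1 and 5.72 at ARNT. Each is the highest of 3 to 9 summits, and no test of these differences was made.

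**Figure D3:**
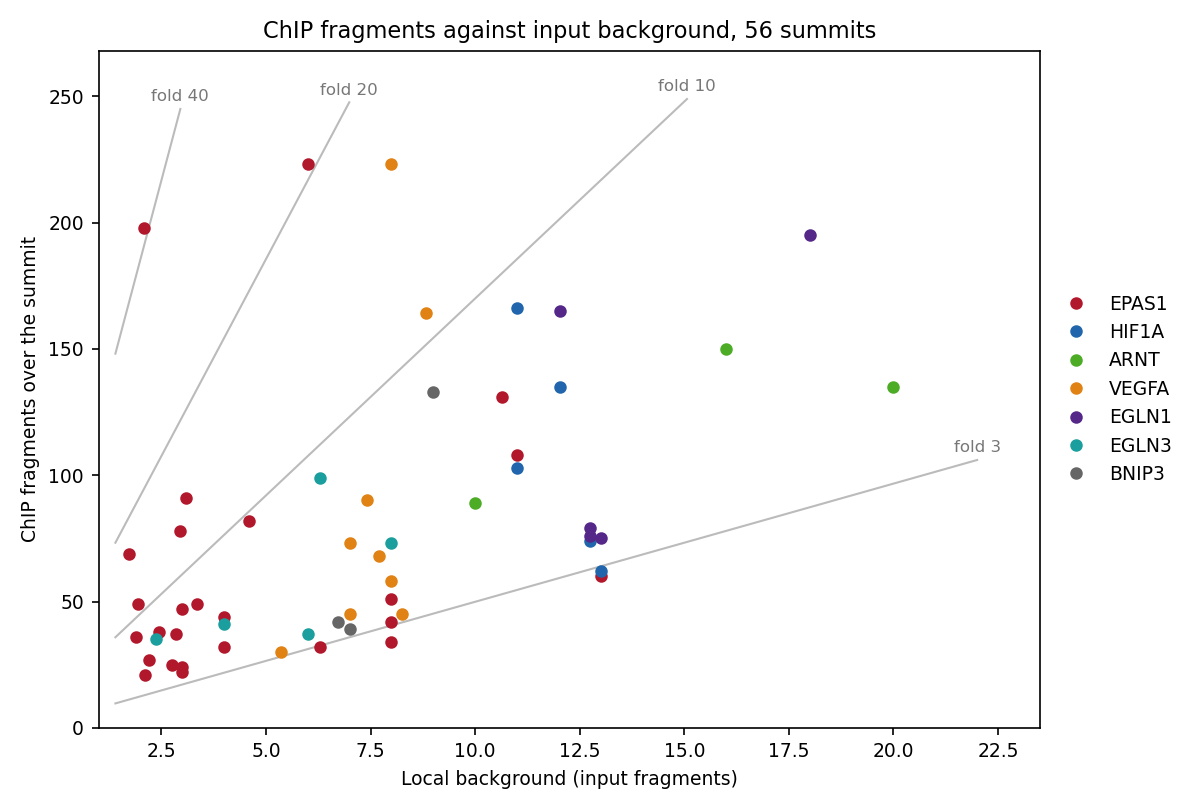
ChIP fragments over each of the 56 summits (vertical) against local background in input fragments (horizontal), coloured by locus, with grey lines of equal fold enrichment. EPAS1 and VEGFA each have a summit with 223 ChIP fragments, at backgrounds of 6 and 8, while the EGLN1 summit with 195 lies at a background of 18.

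Summits with like numbers of ChIP fragments showed how far the background sets these values. The EPAS1 summit of 43.3 kb and the strongest VEGFA summit both had 223 fragments, and their fold enrichments of 20.6 and 16.0 differed through backgrounds of 6 and 8. The strongest EPAS1 summit had 198 fragments and the EGLN1 summit at 2.67 kb had 195, with intervals of 171 to 228 and 169 to 224. Their fold enrichments were 41.5 and 6.64, over backgrounds of 2.09 and 18 input fragments. Ranked by ChIP fragments over the whole list, they were number 2478 and number 2686.

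Over all 56 summits the fold enrichment was close to that of the list. The median was 5.65 (5.30 for the 30 summits without EPAS1) and that of the list 5.35. At least 10 was reached by 8 of the 56, or 14.3%, with 6 of the 8 in EPAS1, which was chosen on this measure. At least 20 was reached by 2, both in EPAS1, where 0.778% of the list reached it. Below the list's median lay 26 of the 56. The background equalled the genome-wide mean at 0 of the 56 summits and at 7.01% of the list.

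**Figure D4:**
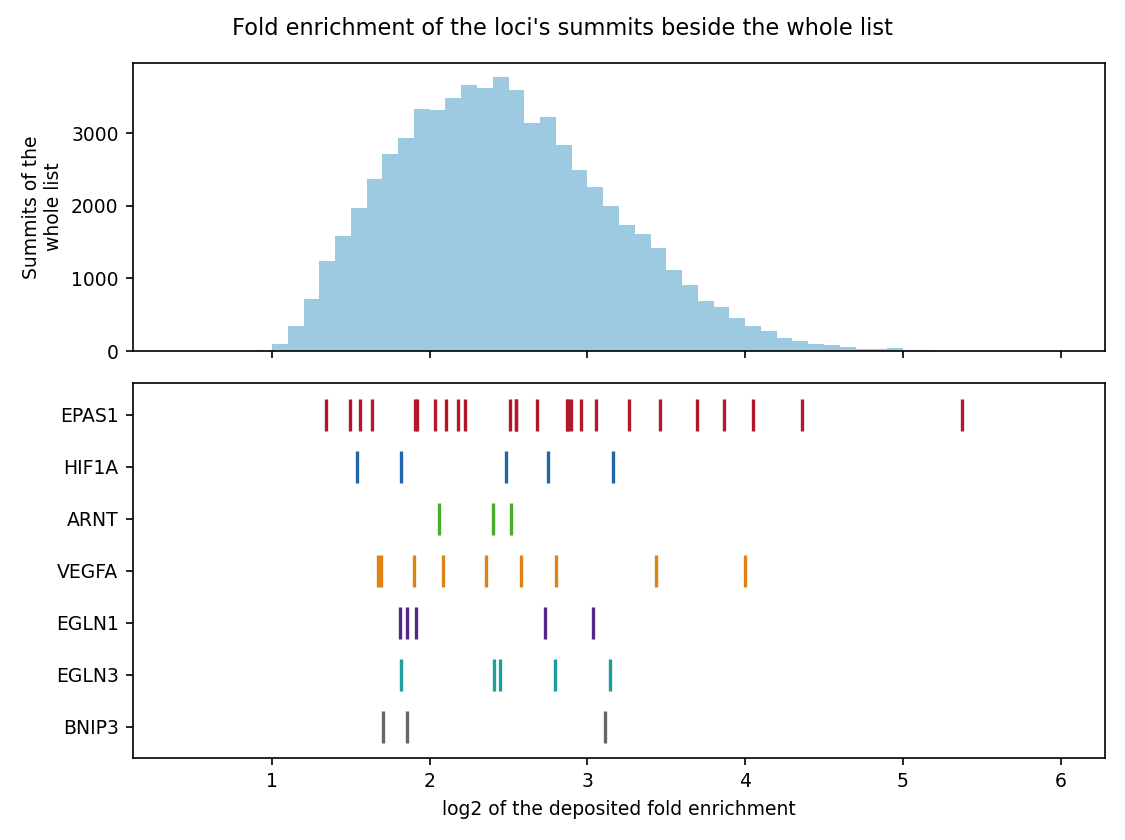
Upper panel: number of summits of the whole list by log2 of the deposited fold enrichment. Lower panel: each tick is a summit of the named locus on the same axis. The ticks of all loci lie across the bulk of the list, and the EPAS1 tick of 41.5 lies in its far right tail.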

How the data were processed

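MYCN ChIP-seq peaks of Kelly cells were used as deposited. Peak calling with MACS2 2.1.1, alignment software STAR 2.5.1b, SAMtools 1.3.1, deepTools 2.2.4 and Picard, and the build hg19, are listed in the submitters' processing notes. Their settings, and how the 2 ChIP samples were joined, are not given in the sources. The deposited fold enrichment is a ratio of ChIP pileup to local background at the summit, and the −log10 of its p-value and of its q-value are deposited beside it. The deposited score repeats the q-value and was not used. Each value is the authors' own for that peak.

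The windows came from a rule set with earlier results of these data known, as were the lists, motifs and thresholds. Named are all 7 loci, with each locus's highest summit, the summit nearest to the implied 5′ edge and every summit of at least 10, and all EPAS1 summits. Strands came from RefSeq promoters, and that of VEGFA from textbook knowledge.

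ChIP fragments and background were solved from fold and p by the relations of MACS2 (pileup scaled by 0.641, pseudocount 1, Poisson upper tail). The p-value was matched within 0.0005 at 64657 of 64657 summits, 24 of which had 2 solutions. ChIP fragments were 1.56 times the input's. The procedure was tested on simulated data. Exact 95% intervals cover counting error only, as no molecular identifiers mark independent molecules. Alternatives changed the thresholds, window, unit and ranking measure. Other genes of the pathway were not analysed here, because no hg19 positions were used. Python 3.11.15, numpy 2.4.6, pandas 2.3.3, scipy 1.17.1 and matplotlib 3.10.9 were used.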

Additional observations from a re-analysis of the deposited data

How the results depend on the processing

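No paired analysis was possible, since the resistant list repeats the sensitive list in all 64657 rows. Peak values were not available for each ChIP sample separately, so there was also no replicate to drop. The 56 summits became 33 when those under a fold enrichment of 5 were dropped and 34 when each interval counted 1 time. A −log10 q minimum of 10 left 38, the genes alone held 49 and windows 10 kb wider held 61. The median fold enrichment of 5.65 was 6.96 with a −log10 q of at least 10. It ran from 5.30 to 6.68 under the other settings tried. The share reaching a fold enrichment of 10 was 6.67% to 20.6% with the other windows, units and loci tried, and 3.57% reached 20, a threshold added after seeing the data. The strongest EPAS1 summit, 8th by fold enrichment, was 14th by −log10 q and number 2478 by ChIP fragments. It was 10th without a pseudocount and 6th with a pseudocount of 5, while its fold enrichment of 41.5 became 60.9 and 18.6. Summits within 5 kb of the 5′ edge numbered 33, and 22 within 2 kb, 35 within 10 kb, 33 with the edge moved to the RefSeq gene length, 27 without EPAS1 and 23 with a −log10 q of at least 10, all chosen after seeing the data.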

Other observations

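The strongest summit of each locus was also set beside the summits of the list whose background lay within 10% of its own, which holds the background nearly equal. Of 2703 such summits for EPAS1, 2 (0.074%), itself included, had at least 198 ChIP fragments, where the median was 31. For VEGFA 92 of 6824 (1.35%) had at least 223. The share was 12.6% for HIF1A, 15.5% for EGLN1, 16.7% for EGLN3, 17.6% for BNIP3 and 31.0% for ARNT. At a nearly equal background this ranking restates the fold enrichment, for which EPAS1 was chosen, so it is a description only and supports no order of the loci.

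The surroundings of the loci, 1 Mb on each side without the windows, differed little in fold enrichment. The median of these neighbouring summits was 4.70 around BNIP3 to 5.64 around EGLN3, and 5.27 for the 105 around EPAS1. Their median background was 7.0 input fragments around EPAS1, against 3.04 at its own 26 summits. The median background was also lower at the own summits of VEGFA (7.7 against 8.96 around it) and EGLN3 (6.0 against 7.57). It was higher at those of HIF1A (12.0 against 5.0), ARNT (16.0 against 10.8), EGLN1 (12.7 against 9.0) and BNIP3 (7.0 against 5.0).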
